A study of Mus musculus with 8 samples.

Results

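Matricellular proteins are secreted into the extracellular matrix, where they bind structural fibres and cell-surface receptors and tune how cells attach, migrate and respond to growth factors. The group described here was chosen by gene name from these families, by a rule that uses no measured value, although earlier results of these data were known when it was made. It holds the thrombospondins Thbs1, Thbs2 and Thbs3, the tenascins Tnc, Tnn and Tnxb, and Postn, Sparc, Fn1 and Tgfbi, 10 of the 52636 genes in the tables. All 10 are protein coding and all 10 passed the filter on low values, a TPM (transcript abundance corrected for length and scaled to the same total in each library) of at least 1 in at least 1 library, which left 12538 genes to test.

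The samples were articular cartilage from male C57BL/6 mice labelled as 10 weeks old, either homozygous for a constitutive deletion of Oscar (Oscar-/-, the osteoclast-associated receptor, which binds collagen) or wild type (WT). The medial meniscus had been destabilized by surgery (DMM, a model of osteoarthritis) or the joint had been sham-operated, and tissue was taken 4 or 2 weeks later. The 8 libraries were thus Oscar-/- DMM, Oscar-/- sham, WT DMM and WT sham at each of the weeks, with 1 library for each of these conditions, made from the RNA of 10 cartilages combined. The comparisons ask how DMM changed these genes in either genotype, how the genotypes differed after the same operation, and whether the response to DMM depended on Oscar.

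Some of these proteins are scarce in resting adult tissue and are laid down during development, mechanical loading and wound repair. Cells sense them mainly through integrins, and several of them hand signals to or receive them from transforming growth factor beta (TGF-beta), which is held in the matrix in latent form. In the joint they are made by chondrocytes, by cells of the synovium and periosteum, by tendon and ligament cells and by osteoblasts, so a bulk library mixes several sources. In such libraries, fewer cells of a type and less RNA per cell cannot be told apart.

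The libraries held 13189181 to 18533609 expected counts. Oscar itself had 0 counts in all 4 Oscar-/- libraries, which allows up to 3 counts in each, and 42 to 118 in the 4 WT libraries. Hemoglobin transcripts took 26.5 to 37.7% of the TPM. The summed TPM of 10 neutrophil markers was 67460 to 109400, against 1083 to 3043 for 16 chondrocyte markers and 3032 to 5707 for 12 osteoblast and osteocyte markers, so the tissue labelled as cartilage also held blood, marrow and bone RNA. The sequencing lane given in the names of the tables was shared by the 2-week libraries. At 4 weeks the Oscar-/- libraries carried another lane than the WT libraries, so that at 4 weeks genotype and lane cannot be told apart, nor can week and lane.

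The genes spanned a wide range of levels. On the length-corrected TPM scale the mean over the 8 libraries was 1379.8 for Sparc, 188 for Fn1, 53.9 for Tgfbi, 37.3 for Tnc, 21.7 for Postn, 18.8 for Thbs1, 8.99 for Thbs3, 3.16 for Thbs2, 1.69 for Tnxb and 1.60 for Tnn. The ranges of neighbours in this order overlapped for Tgfbi and Tnc, for Tnc and Postn, for Postn and Thbs1, for Thbs1 and Thbs3, for Thbs2 and Tnxb and for Tnxb and Tnn. Sparc stood above every other gene in each library, with a lowest value of 776 TPM against a highest value of 248 TPM for Fn1. Tnn had the fewest reads, with 20 to 427 expected counts per library.

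**Figure D1:**
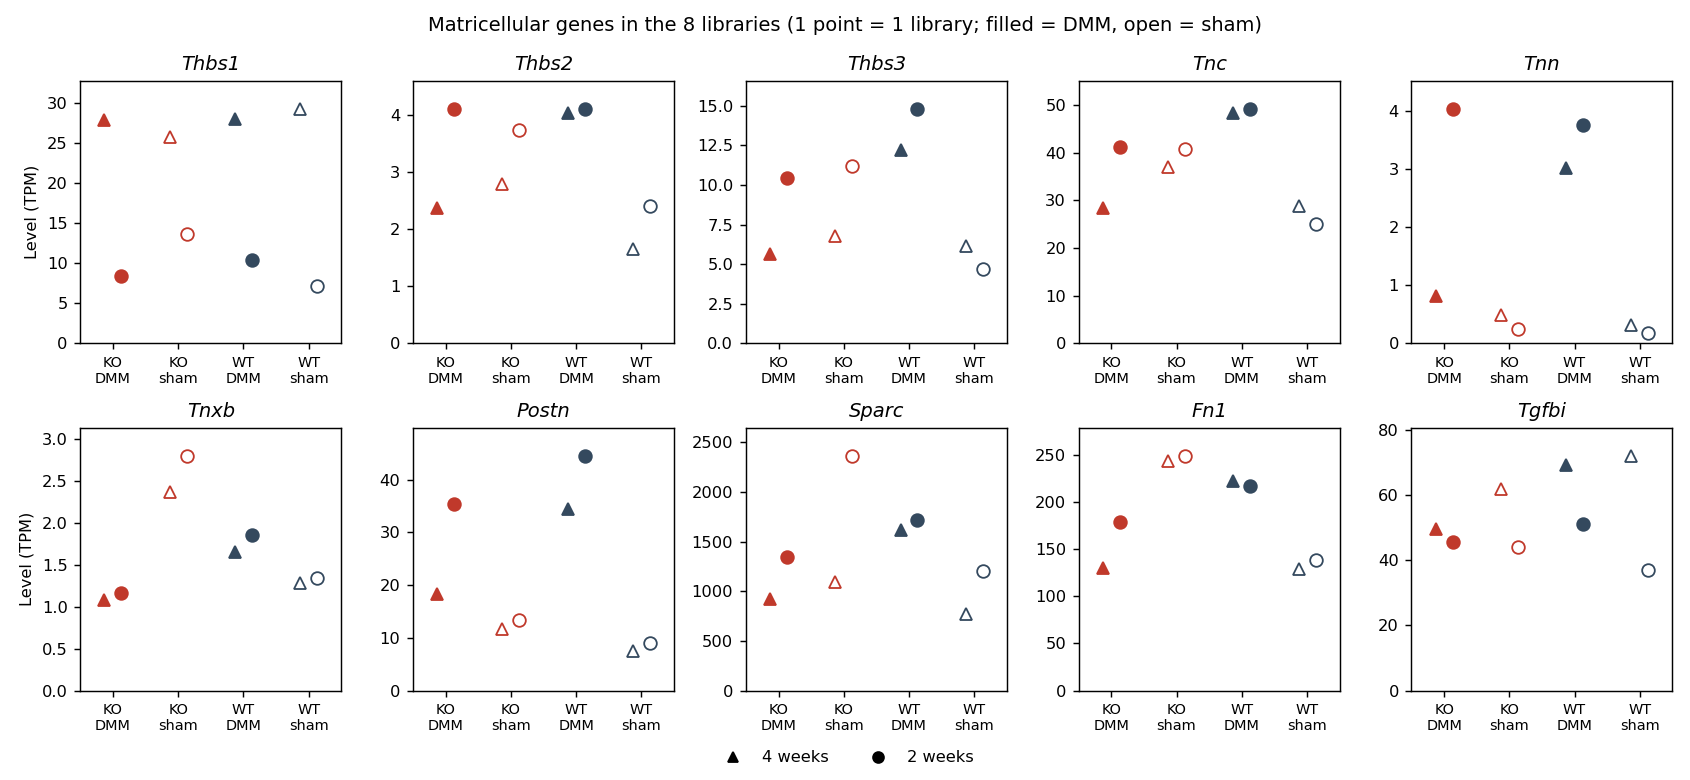
TPM of the 10 genes in each of the 8 libraries on a linear axis, 1 panel a gene, with triangles for 4 weeks, circles for 2 weeks, filled symbols for DMM, open symbols for sham and KO for Oscar-/-. Every point is 1 library of combined RNA, so there are no error bars. Postn lay at 34.4 and 44.4 TPM in the WT DMM libraries, above every other library but that of Oscar-/- DMM at 2 weeks, and Thbs1 lay at 25.9 to 29.3 TPM in all 4-week libraries.

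Postn and Tnn are the members most closely tied to the periosteum and to newly forming matrix. Postn encodes periostin, a matrix protein with fasciclin domains that binds integrins and assists collagen cross-linking. Tnn encodes tenascin-N, also called tenascin-W, an oligomeric tenascin found in periosteum and osteogenic tissue. Both had low levels after sham surgery and their largest rises after DMM, so the stretch around each transcription start is shown first, as 250 bases before and 50 bases from the first base of a RefSeq transcript (build GRCm38.p6). In Postn (chr3:54360857-54361156, plus strand) capitals mark a TATAAA hexamer that begins at position -26, the first transcribed base being 1 and the base before it -1. In Tnn (chr1:160153526-160153825, minus strand, written in the direction of transcription) capitals mark GGAATG, the reverse complement of the CATTCC motif of TEAD factors, which begins at position -160.
Postn: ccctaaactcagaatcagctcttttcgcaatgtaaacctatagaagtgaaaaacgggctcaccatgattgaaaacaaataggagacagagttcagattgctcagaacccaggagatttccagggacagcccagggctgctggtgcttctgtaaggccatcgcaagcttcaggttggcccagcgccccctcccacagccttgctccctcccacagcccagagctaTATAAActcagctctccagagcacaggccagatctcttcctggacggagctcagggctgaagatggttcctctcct
Tnn: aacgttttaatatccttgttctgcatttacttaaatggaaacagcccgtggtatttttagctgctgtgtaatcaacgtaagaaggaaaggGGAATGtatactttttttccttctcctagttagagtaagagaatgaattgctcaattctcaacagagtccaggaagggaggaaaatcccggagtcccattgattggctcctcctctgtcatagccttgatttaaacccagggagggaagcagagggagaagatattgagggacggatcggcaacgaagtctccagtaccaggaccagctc

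Of all 32851 RefSeq promoter windows of this length, 13.6% hold TATAAA and 14.7% hold CATTCC on either strand, so neither match is rare. For the members, 8 of 10 had a window in the table, Thbs1 and Fn1 being without one, and Postn and Tnc had more than 1, which gave 10 windows. TATAAA occurred in those of 3 members (Postn, Thbs2, Tnc), which was 4 of the 10 windows, and CATTCC in that of 1. CAGACA, a SMAD-type motif that does not overlap the others in letters, occurred in 3 members (Thbs2, Tnc, Sparc). That was 4 of the 10 windows, against 21.0% of all windows. The first transcribed base of the Sparc window lies 3103 bases inside the gene from its annotated start, so its matches are not at that start. These are matches of letters and no binding was measured.

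Postn (chr3:54361109-54391037, plus strand) had 18.2 TPM in the Oscar-/- DMM library and 11.6 TPM in the Oscar-/- sham library at 4 weeks. At 2 weeks it had 35.5 TPM after DMM and 13.4 TPM after sham in Oscar-/-. Both DMM values were thus above both sham values. In WT mice it had 34.4 TPM after DMM and 7.40 TPM after sham at 4 weeks, and 44.4 TPM after DMM and 9.06 TPM after sham at 2 weeks. Here the DMM values were 4.65 and 4.90 times their sham values, again with no overlap. The effective length given for Postn varied between 1878 and 2392 bases among libraries, so that its TPM and count folds differ. At 2 weeks it was 1878 bases after DMM and 2381 after sham in Oscar-/-, and 1959 and 1941 in WT. In edgeR's quasi-likelihood fit with week as a term, Postn rose 1.79-fold after DMM in Oscar-/- (log2 0.84 ± 0.12 SE, adjusted p = 0.0434) and 3.74-fold after DMM in WT (log2 1.90 ± 0.12 SE, adjusted p = 7.37e-05). The difference of the responses on the log2 scale was -1.06 ± 0.17 (SE, adjusted p = 0.0136).

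Tnn (chr1:160085029-160153580, minus strand) was the sparsest member and had the widest swings. Oscar-/- libraries had 90 expected counts after DMM and 41 after sham at 4 weeks, and 394 after DMM and 20 after sham at 2 weeks. In WT there were 226 counts after DMM and 26 after sham at 4 weeks, and 427 after DMM and 23 after sham at 2 weeks. The Oscar-/- DMM library at 2 weeks was thus near its WT counterpart, whereas at 4 weeks it lay below. In TPM, Oscar-/- had 0.81 after DMM and 0.49 after sham at 4 weeks, and 4.03 after DMM and 0.24 after sham at 2 weeks. WT had 3.02 TPM after DMM and 0.31 after sham at 4 weeks, and 3.75 after DMM and 0.18 after sham at 2 weeks. The DMM libraries were above the sham libraries in both genotypes. In Oscar-/- the log2 estimate was 2.63 ± 0.56 and missed the threshold (adjusted p = 0.0964), while the rise in WT was 3.66 ± 0.56 (SE, adjusted p = 0.00484). Tnn passed the filter on low values only through DMM libraries, since every sham library lay at 0.18 to 0.49 TPM. Its tests of DMM against sham were thus made on a gene kept for its DMM values. The difference of the responses, -1.03 ± 0.88, also missed the threshold (adjusted p = 0.509).

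The thrombospondins divided by week and by operation. Thbs1 (chr2:118111876-118127133, plus strand) encodes thrombospondin-1, a platelet and matrix protein that restrains angiogenesis and can release TGF-beta from its latent complex. At 4 weeks it had 27.9 TPM in Oscar-/- DMM, 25.9 in Oscar-/- sham, 28.1 in WT DMM and 29.3 in WT sham. At 2 weeks it had 8.40 TPM in Oscar-/- DMM, 13.7 in Oscar-/- sham, 10.4 in WT DMM and 7.14 in WT sham. The weeks did not overlap, while DMM and sham libraries did in both genotypes.

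Thbs2 and Thbs3 followed the operation in WT. Thbs2 (chr17:14665500-14694235, minus strand) encodes thrombospondin-2, which limits vessel growth and shapes collagen fibrils in connective tissue. The Oscar-/- libraries had 2.38 TPM after DMM and 2.79 after sham at 4 weeks, and 4.11 and 3.74 at 2 weeks. WT libraries had 4.05 TPM after DMM and 1.66 after sham at 4 weeks, and 4.11 and 2.41 at 2 weeks. The Oscar-/- libraries of DMM and sham overlapped, and Thbs2 rose after DMM in WT (log2 0.77 ± 0.17 SE, adjusted p = 0.0253). The difference of the responses was -0.72 ± 0.23 and missed the threshold (adjusted p = 0.0999).

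Thbs3 (chr3:89215180-89226837, plus strand) encodes thrombospondin-3, which is known from mice to take part in skeletal maturation. In Oscar-/- it had 5.62 TPM after DMM and 6.78 after sham at 4 weeks, and 10.4 and 11.2 at 2 weeks. The WT libraries had 12.2 TPM after DMM and 6.12 after sham at 4 weeks, and 14.8 and 4.72 at 2 weeks. DMM and sham overlapped in Oscar-/- and not in WT. The rise in WT was 0.86 ± 0.17 on the log2 scale (SE, adjusted p = 0.0179) and its difference between genotypes -1.02 ± 0.24 (SE, adjusted p = 0.0406). Of its exonic bases 318 are shared with Mtx1 on the opposite strand, and the effective length the deposited tables give for it varied between 992 and 1641 bases among libraries, so that its TPM and count folds differ.

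Among the tenascins, Tnc encodes tenascin-C, a large oligomeric protein induced at sites of injury and mechanical strain. Tnc (chr4:63959785-64047015, minus strand) had 28.3 TPM after DMM and 37.0 after sham in Oscar-/- cartilage at 4 weeks, with 41.2 after DMM and 40.8 after sham at 2 weeks. WT cartilage had 48.2 TPM after DMM and 28.8 after sham at 4 weeks, and 49.1 and 25.1 at 2 weeks. The WT DMM libraries were thus the highest of the series and the WT sham libraries 2 of the lowest 3. Tnc rose 1.56-fold after DMM in WT (log2 0.64 ± 0.10 SE, adjusted p = 0.00544) and its response differed between genotypes by -0.73 ± 0.14 (SE, adjusted p = 0.0252).

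Tnxb encodes tenascin-X, which organizes collagen fibrils and whose loss in humans causes a form of Ehlers-Danlos syndrome. It was the member that fell after DMM in Oscar-/-, and its promoter window (chr17:34670285-34670584, plus strand) is shown because it was the one member window with an AP-1 motif. Capitals mark the letters TGAGTCA, which begin at position -55. The motif searched was TGANTCA, which reads as itself on the other strand and is present in 7.81% of all windows.
Tnxb: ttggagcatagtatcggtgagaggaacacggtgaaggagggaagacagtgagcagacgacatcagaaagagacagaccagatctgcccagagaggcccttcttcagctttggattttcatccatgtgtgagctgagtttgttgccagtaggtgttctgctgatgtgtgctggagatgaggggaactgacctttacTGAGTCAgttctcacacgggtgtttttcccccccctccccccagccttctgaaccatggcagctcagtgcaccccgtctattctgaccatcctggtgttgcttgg

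Tnxb (chr17:34670535-34719815, plus strand) had 1.08 TPM in the Oscar-/- DMM library and 2.36 in the Oscar-/- sham library at 4 weeks, with 1.16 after DMM and 2.79 after sham at 2 weeks. Both Oscar-/- sham libraries were above, and both Oscar-/- DMM libraries below, every WT library. In WT it had 1.65 TPM after DMM and 1.28 after sham at 4 weeks, and 1.85 and 1.34 at 2 weeks. It fell by 1.09 ± 0.12 on the log2 scale after DMM in Oscar-/- (SE, adjusted p = 0.0206), with an estimate of 0.18 ± 0.12 in WT (adjusted p = 0.388). The difference of the responses was -1.27 ± 0.16 (SE, adjusted p = 0.00765).

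Sparc, Fn1 and Tgfbi were the most abundant members. Sparc encodes osteonectin, a calcium- and collagen-binding glycoprotein made in large amounts by osteoblasts and fibroblasts. Sparc (chr11:55394500-55423183, minus strand) had 919.8 TPM after DMM and 1095 after sham in Oscar-/- mice at 4 weeks, with 1350.1 after DMM and 2361 after sham at 2 weeks. In WT it had 1614 TPM after DMM and 776 after sham at 4 weeks, and 1717 and 1206 at 2 weeks. The direction thus differed by genotype at both weeks. The estimates over both weeks were -0.45 ± 0.20 in Oscar-/- (adjusted p = 0.429) and 0.58 ± 0.20 in WT (adjusted p = 0.131), and the difference of -1.03 ± 0.29 missed the threshold (adjusted p = 0.0624).

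Fn1 encodes fibronectin, the main adhesive glycoprotein of provisional matrix and a substrate for integrins. Fn1 (chr1:71585520-71653200, minus strand) had 129.7 TPM after DMM and 243.5 after sham in Oscar-/- mice at 4 weeks, with 178 after DMM and 248 after sham at 2 weeks. In WT it had 222 TPM after DMM and 129 after sham at 4 weeks, and 216 and 139 at 2 weeks. The Oscar-/- sham libraries were the highest of the series. The effective length given for Fn1 varied between 4037 bases (WT sham at 2 weeks) and 4763 bases (WT sham at 4 weeks), so that its TPM and count folds differ. The Oscar-/- estimate after DMM was -0.65 ± 0.11 (adjusted p = 0.0669), Fn1 rose after DMM in WT (log2 0.55 ± 0.11 SE, adjusted p = 0.0184), and the difference of the responses was -1.19 ± 0.16 (SE, adjusted p = 0.00824).

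Tgfbi, named for its induction by TGF-beta, encodes a fasciclin-domain protein related to periostin that links collagens to integrins. Tgfbi (chr13:56609523-56639562, plus strand) had 49.7 TPM after DMM and 61.8 after sham in Oscar-/- mice at 4 weeks, with 45.7 after DMM and 44.2 after sham at 2 weeks. In WT it had 69.3 TPM after DMM and 72.0 after sham at 4 weeks, and 51.2 and 37.0 at 2 weeks. DMM and sham overlapped in both genotypes, and no comparison of operation or genotype called it. With Thbs1 it was the member that differed least after DMM in WT, with estimates of -0.03 ± 0.10 for Tgfbi and 0.01 ± 0.17 for Thbs1 on the log2 scale.

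Counted together, 2 of the 10 members changed after DMM in Oscar-/- mice, where Postn rose and Tnxb fell. With 1 library per condition the weeks stand in for replicates, so the p-values rest on the spread left between these libraries after the week term. The fit draws each gene's spread toward that of other genes, so a p-value rests partly on genes other than its own. Postn was the 1 gene called higher among all 12538 (0.00798%), and 0.104% of genes were called lower. The median over the members was -0.12, against 0.00 over all genes tested. On the TPM scale both DMM libraries were above both sham libraries for 2 members (Tnn and Postn, against 7.39% of genes) and below them for 2 (Tnxb and Fn1, against 22.1%). Tnn had passed the filter on low values only through DMM libraries. Without the Oscar-/- sham library of 2 weeks neither member was called, and without the week term neither was.

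In WT mice, 6 of the 10 members rose after DMM (Postn, Tnn, Tnc, Thbs3, Fn1 and Thbs2), where 4.05% of all tested genes rose. None fell, where 0.598% of genes did. Tnn, 1 of the 6, had passed the filter on low values only through DMM libraries. The median log2 change over the 10 members was 0.61, against -0.02 over all genes tested. On the TPM scale 8 members, all but Thbs1 and Tgfbi, were higher in both WT DMM libraries than in both WT sham libraries, against 21.4% of tested genes. Tnn is among these 8 too. With the WT DMM library of 4 weeks left out 1 member was called, Postn (adjusted p = 0.00463), and without the week term none was.

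Between genotypes, 3 members were higher in Oscar-/- than in WT after sham surgery, where 1.57% of all genes were. Fn1 differed by 0.85 ± 0.11 on the log2 scale (SE, adjusted p = 0.0107), Tnxb by 0.82 ± 0.11 (SE, adjusted p = 0.0116) and Postn by 0.63 ± 0.13 (SE, adjusted p = 0.0413). RNA for fibronectin, tenascin-X and periostin was thus higher in the Oscar-/- sham libraries than in the WT sham libraries. At 4 weeks the genotypes also differed in sequencing lane. In the same comparison 4 of 13 fibroblast and synovium markers and 3 of 15 chondrocyte markers were higher and 6 of 12 platelet markers lower in Oscar-/-, and their part was not tested. On the TPM scale 6 members had both Oscar-/- sham libraries above both WT sham libraries (Thbs2, Thbs3, Tnc, Tnxb, Postn and Fn1), against 16.5% of genes. Leaving out the Oscar-/- sham library of 4 weeks, or that of 2 weeks, left 0 members called.

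After DMM edgeR called 0 members different between Oscar-/- and WT, as against 0.0479% of all genes. At an unadjusted p under 0.05 there were 4 members and 1567 genes, DESeq2 called 1 member, Fn1 (log2 -0.35, adjusted p = 0.0264, with 6.21% of the genes to which it gave an adjusted p called), and limma on log2(TPM + 1) called none (0.0638% of genes). The median over the members was -0.35, against -0.01 over all genes tested. On the TPM scale 6 members had both Oscar-/- DMM libraries below both WT DMM libraries (Thbs3, Tnc, Tnxb, Sparc, Fn1 and Tgfbi), against 37.4% of genes. Without the Oscar-/- DMM library of 2 weeks 2 members, Tnn and Postn, were lower in Oscar-/-.

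**Figure D2:**
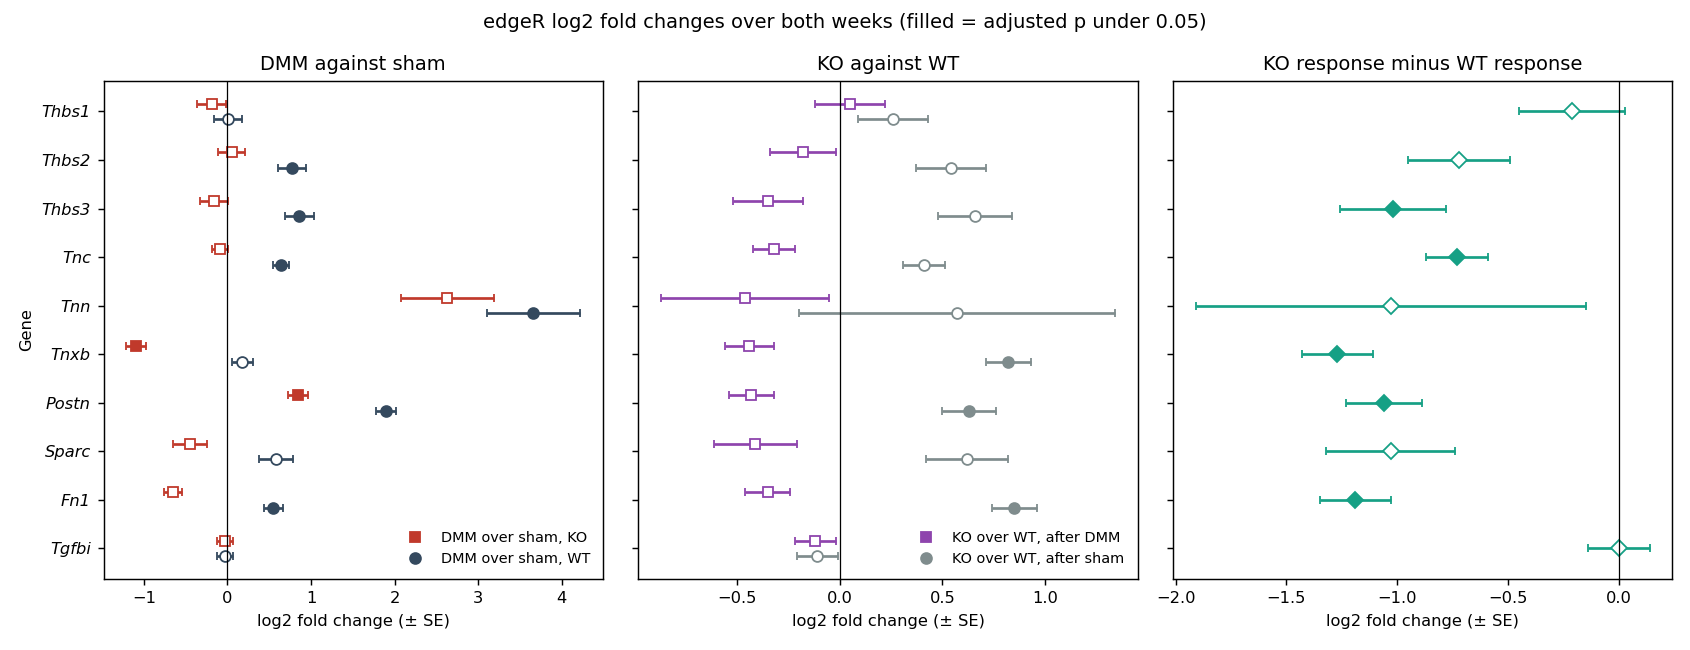
Log2 fold changes of the 10 genes from edgeR with their standard errors as bars, filled where the adjusted p was under 0.05, KO standing for Oscar-/-. The panels show DMM against sham within each genotype, Oscar-/- against WT within each operation, and the Oscar-/- response minus the WT response. The last panel has 5 filled points (Tnxb, Fn1, Postn, Thbs3 and Tnc), all between -1.27 and -0.73.

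The response to DMM itself, as the Oscar-/- response minus the WT response, was lower for 5 members, where 3.53% of all genes were lower and 1.43% higher. These were Tnxb, Fn1, Postn, Tnc and Thbs3, with the values given above. The median of the members was -1.02, against 0.00 over all genes. DESeq2 called 4 of them, without Thbs3 (4.01% of genes in either direction), and limma on log2(TPM + 1) called 6, with Sparc (2.79% of genes). The estimate is the Oscar-/- change less the WT change, so the sham levels of both genotypes enter it as well as the DMM levels. For each of the 5 that edgeR called, Oscar-/- against WT was larger in size after sham (log2 0.41 to 0.85) than after DMM (-0.44 to -0.32). Without the WT DMM library of 4 weeks none of the 5 was called (adjusted p between 0.0593 and 0.145), although each estimate stayed at or below -0.65, and without the week term none was. At least 1 of the 5 lost its call on leaving out any other library but the WT sham library of 4 weeks and the Oscar-/- DMM library of 2 weeks.

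Within each week, the same difference can be written from TPM alone as DIF, the log2 of DMM over sham for Oscar-/- less the same for WT, which was the quantity the study used. Only the counting error of the 4 libraries can be attached to it, since it has no replicates. DIF at 4 weeks was -1.70 ± 0.03 for Fn1, -1.56 ± 0.14 for Postn, -1.49 ± 0.17 for Tnxb, -1.31 ± 0.02 for Sparc, -1.13 ± 0.05 for Tnc and -2.56 ± 0.40 for Tnn (± counting SE). At 2 weeks it was -1.12 ± 0.02 for Fn1, -0.89 ± 0.11 for Postn, -1.73 ± 0.15 for Tnxb, -1.32 ± 0.01 for Sparc, -0.96 ± 0.04 for Tnc and -0.31 ± 0.45 for Tnn. Sparc was thus nearly equal at both weeks and Tnn unlike between them, with a Tnn value at 2 weeks of 0.07 on TMM-scaled counts. Thbs3 had -1.27 ± 0.24 at 4 weeks and -1.75 ± 0.21 at 2 weeks, and Thbs2 had -1.52 ± 0.19 and -0.63 ± 0.15. On TMM-scaled counts, Thbs3 had -1.25 at 4 weeks and -0.83 at 2 weeks, so that the order of the weeks turned, and Thbs2 had -1.29 and -0.24. Fn1 had -1.45 at 4 weeks and -0.94 at 2 weeks on those counts, away from its TPM values by more than the counting SE. Thbs1 was positive at 4 weeks (0.17 ± 0.06) and negative at 2 weeks (-1.25 ± 0.09), and Tgfbi had -0.26 ± 0.06 at 4 weeks and -0.42 ± 0.06 at 2 weeks. The 2-week values all come from libraries of 1 lane.

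Taken over the members, DIF had a median of -1.40 at 4 weeks and -1.04 at 2 weeks, against -0.22 and -0.41 over all tested genes, most of which had a negative DIF on the TPM scale (75% and 82.6%). On TMM-scaled counts, which remove most of that shift, the members' medians were -1.24 and -0.84 and those of all genes 0.01 and -0.02. A gene counted as attenuated when DMM was above sham in WT, below sham in Oscar-/- and its DIF lay under the lower quartile of all genes. By that rule 6 members were attenuated at 4 weeks (Thbs2, Thbs3, Tnc, Tnxb, Sparc and Fn1), against 21.6% of genes. At 2 weeks there were 5 (Thbs1, Thbs3, Tnxb, Sparc and Fn1), against 20.6%. Thbs3, Tnxb, Sparc and Fn1 were attenuated at both weeks on the TPM scale, against 10.1% of genes. For Thbs3 this depended on the scale, since its Oscar-/- response at 2 weeks was -0.10 on TPM and 0.08 on TMM-scaled counts (log2), where DMM was not below sham. Postn and Tnn did not qualify at either week because DMM was above sham in Oscar-/- too.

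**Figure D3:**
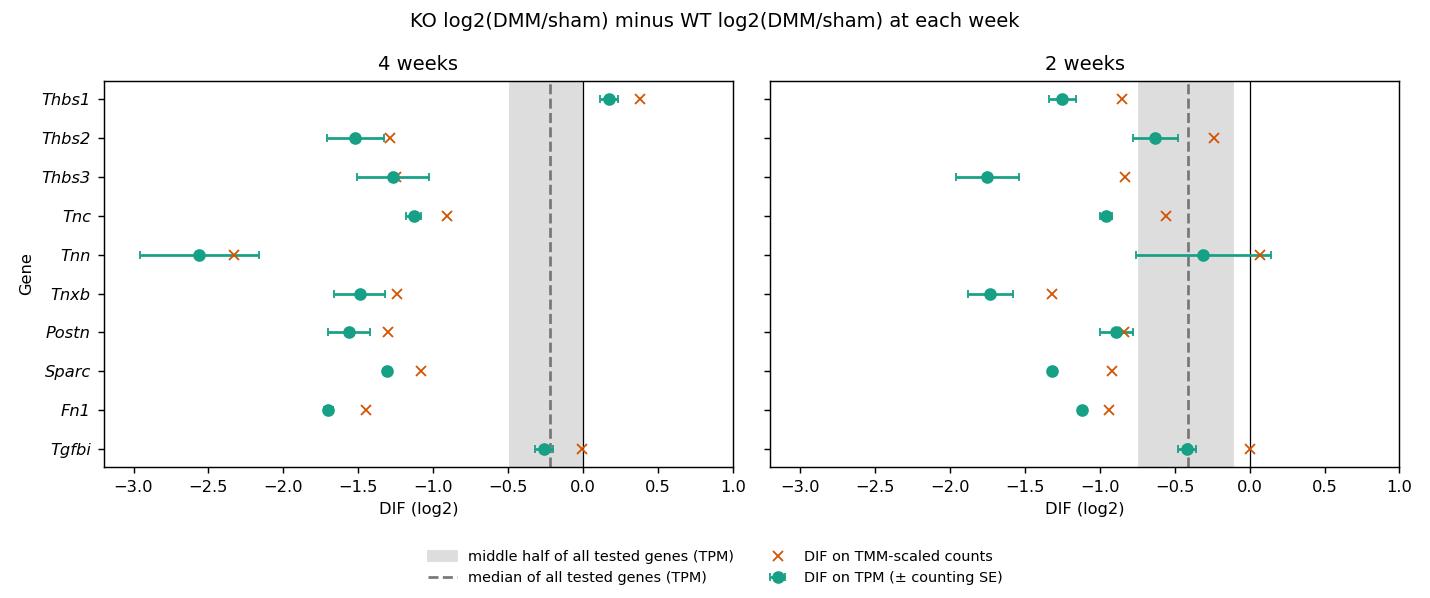
DIF of the 10 genes (Oscar-/- response to DMM less the WT response, log2, from TPM) at 4 weeks on the left and 2 weeks on the right, with counting standard errors as bars and crosses for the same value on TMM-scaled counts, and a dashed line and grey band for the median and quartiles of all tested genes. On TPM, 9 genes lay below 0 at 4 weeks, Thbs1 being the exception at 0.17, and all 10 at 2 weeks, where Tnn turned to 0.07 on TMM-scaled counts, and Tnn had the lowest value at 4 weeks (-2.56).

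The weeks differed for most members, and here the week cannot be told apart from the lane. Thbs1 was the 1 member higher at 4 than at 2 weeks (log2 1.21 ± 0.12 SE, adjusted p = 0.00021), where 11.3% of genes were. Another 7 were lower at 4 weeks, where 10.6% of genes were. Sparc had the largest of these falls (log2 -0.89 ± 0.14 SE, adjusted p = 0.00266), followed by Thbs2 (-0.73), Postn (-0.68), Thbs3 (-0.48), Tnxb (-0.44), Tnc (-0.43) and Fn1 (-0.36). Tgfbi (0.19 ± 0.07, adjusted p = 0.065) and Tnn (-0.97 ± 0.37, adjusted p = 0.0858) missed the threshold. With limma on log2(TPM + 1), a scaling on which the median gene moved by 0.23, 4 members were called, Thbs1 and Tgfbi higher and Sparc and Postn lower, where 34.6% of genes were called. Of the cell type markers, 9 of 13 for fibroblasts and synovium (median log2 -0.61), 6 of 12 for osteoblasts and osteocytes and 6 of 15 for chondrocytes were also lower at 4 weeks, and their part in the members' falls was not tested.

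Thbs1 is stored in platelets as well as made by stromal cells. Of 12 platelet and megakaryocyte markers 12 were higher at 4 weeks, with a summed TPM of 573 to 957 at 4 weeks and 118 to 184 at 2 weeks, so the ranges did not overlap. Itgb3, the beta chain of the platelet fibrinogen receptor and also part of a receptor for fibronectin, was higher at 4 weeks as well (log2 1.44, adjusted p = 1.03e-05). Within 2 weeks the orders were opposite at the ends. WT sham had the highest platelet sum (184) and the lowest Thbs1 (7.14 TPM), and Oscar-/- sham the lowest sum (118) and the highest Thbs1 (13.7 TPM). At 4 weeks WT sham was highest and Oscar-/- sham lowest for both, with sums of 957 and 573 and Thbs1 at 29.3 and 25.9 TPM. The part of these cells in the Thbs1 difference was not tested.

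To compare shapes, each gene's log2(TMM-scaled CPM + 1) was centred on its own mean over the 8 libraries. The mean profile of the members was highest in WT DMM at 2 weeks (0.47) and lowest in WT sham at 4 weeks (-0.58). Among members, Thbs3 and Tnc were nearest to each other (root mean square difference 0.094), and Fn1 and Tnxb were each other's nearest member at 0.227. Thbs2 lay nearest Tnc (0.208), Sparc nearest Thbs2 (0.266), Tgfbi nearest Tnc (0.401) and Postn nearest Thbs2 (0.499). Thbs1, nearest Tgfbi at 0.56, and Tnn, nearest Postn at 0.752, had no close neighbour. Outside the group, 10827 genes were compared with the mean profile, and those nearest it included Itga9 (0.07), which encodes an integrin chain that binds tenascin-C, Pcolce (0.072), an enhancer of procollagen processing, Clec11a (0.073), an osteogenic growth factor, and Dysf (0.076), a membrane-repair protein. These distances describe 8 libraries.

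Other genes of the same kinds were read from lists. Beside the counts here and below, 4.05% of all tested genes rose after DMM in WT. For the difference of responses 3.53% were lower and 1.43% higher. Without the week term no gene was called in either comparison. Of 25 other matricellular genes 20 were tested, 5 rose after DMM in WT (Ccn4, Ccn5, Fbln2, Fbln5 and Sparcl1) and 4 had a lower response in Oscar-/-. These 4 were Sparcl1 (-1.18 ± 0.14), a relative of Sparc, Ccn4 (-1.15 ± 0.14), a Wnt-induced matricellular protein, Fbln7 (-0.90 ± 0.22), a fibulin, and Ccn1 (-0.69 ± 0.17), an integrin ligand (log2 ± SE, adjusted p between 0.00552 and 0.0445). The list's median was -0.57. In Oscar-/-, Ccn4 had 4.45 and 4.18 TPM after DMM and 6.12 and 6.55 TPM after sham at 4 and 2 weeks. WT libraries had 6.69 and 6.16 TPM after DMM and 3.88 and 2.98 TPM after sham, so the order of the operations was the opposite.

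Of 20 receptors of the members 18 were tested, 6 rose after DMM in WT and 3 had a lower response in Oscar-/-. They were Itgav (-0.81 ± 0.15), the alpha chain shared by several receptors for periostin and fibronectin, Lrp1 (-0.73 ± 0.13), which takes up thrombospondins, and Stab1 (-0.66 ± 0.15), which takes up Sparc (log2 ± SE, adjusted p between 0.0205 and 0.033). The median of the receptors was -0.42.

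Of 16 TGF-beta ligands, receptors and direct targets, all tested, 3 rose after DMM in WT and 7 had a lower response in Oscar-/-, with a median of -0.67. Among the 7 were Eln, encoding elastin (-1.24 ± 0.21), and the ligand Tgfb3 (-1.08 ± 0.23). Skil, a feedback inhibitor (-0.75 ± 0.14), the latent-complex protein Ltbp3 (-0.64 ± 0.15) and the receptor Tgfbr1 (-0.53 ± 0.13) also passed (log2 ± SE, adjusted p between 0.0191 and 0.0407 for these 5).

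Markers of several cell types moved with the members. The summed TPM of 13 fibroblast and synovium markers was 1052 and 1714 in Oscar-/- DMM and 1320 and 1691 in Oscar-/- sham at 4 and 2 weeks, and 1944 and 2226 in WT DMM and 871 and 889 in WT sham. Of these 13, 11 rose after DMM in WT and 10 had a lower response in Oscar-/-, with a median difference of -1.0, the members' being -1.02. A lower response was also called for 6 of 12 osteoblast and osteocyte markers (median -0.71) and 3 of 15 tested chondrocyte markers (median -0.77). It was called as well for 1 of 5 tested tendon and ligament markers (median -0.62) and 4 of 12 endothelial markers (median -0.44). Endothelial markers rose after DMM in WT for 9 of 12, with summed TPM of 219.9 and 204 in WT DMM and 154 and 113 in WT sham. Macrophage and neutrophil markers were not called in this comparison, and 6 of 12 platelet markers had a higher response. Summed TPM of muscle markers was highest in WT sham at 2 weeks (252), against 62.0 to 157 elsewhere. The part of these cell types in the members' changes was not tested.

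**Figure D4:**
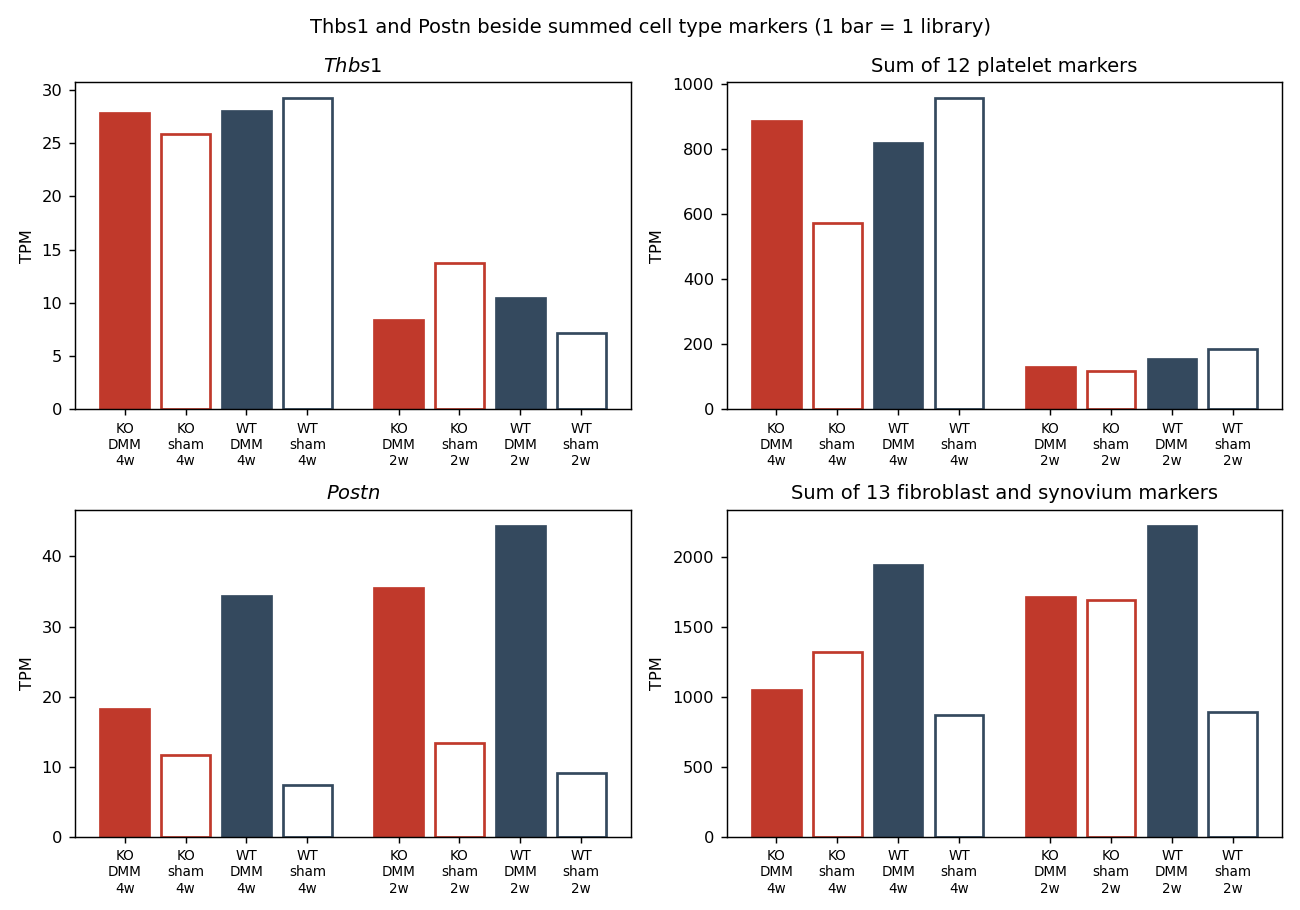
Bars give TPM in each of the 8 libraries for Thbs1 beside the sum of 12 platelet markers (top) and for Postn beside the sum of 13 fibroblast and synovium markers (bottom), filled for DMM and open for sham, 1 bar a library. The platelet sum and Thbs1 split by week with no overlap, and the fibroblast sum lay at 1944 and 2226 in WT DMM and at 871 and 889 in WT sham. Within the 2-week libraries the platelet sum was highest and Thbs1 lowest in WT sham.

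**Figure D5:**
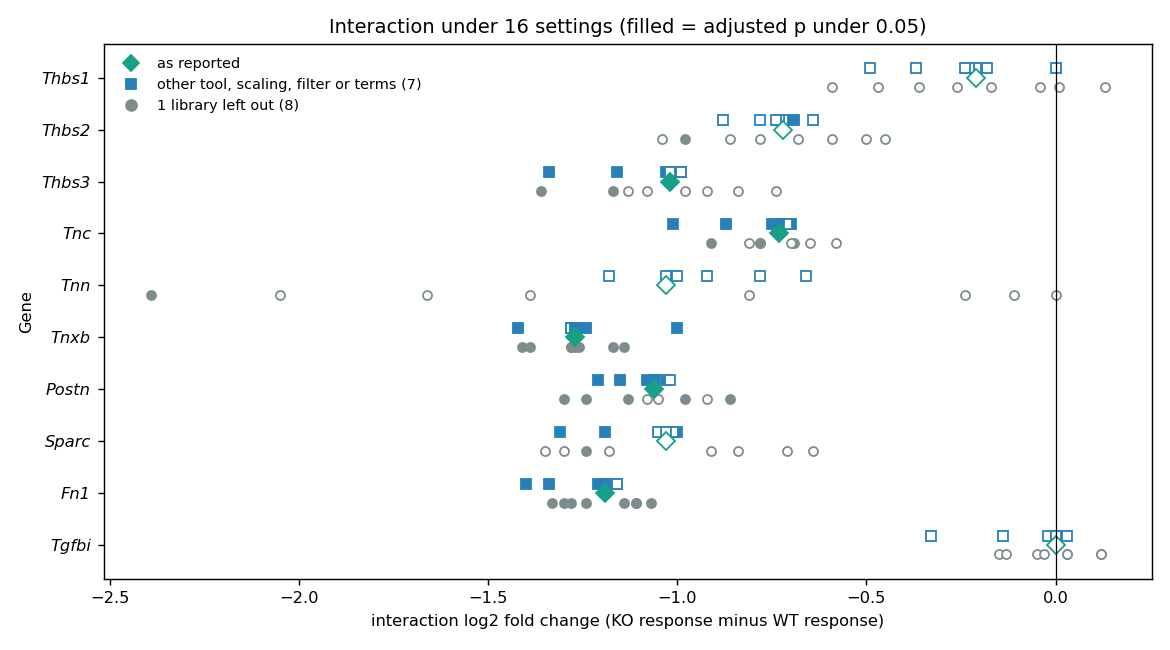
The difference of the responses (Oscar-/- minus WT, log2) for each gene as reported (diamonds), under 7 other tools, scalings, filters or terms (squares) and with 1 library left out (circles), filled where the adjusted p was under 0.05. Tnxb lay between -1.42 and -1.0 and Fn1 between -1.40 and -1.07 over the 15 alternatives, while Tnn, tested under 14 of them, spread between -2.39 and 0.00.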

How the data were processed

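RNA from the 8 cartilage libraries described above was sequenced, and the tools listed in the notes of the submitters are RSEM 1.2.17, STAR 2.6.0a and FastQC 0.11.8. Expected counts per gene, as RSEM estimates them, and TPM were deposited by the authors in 1 table a library. Expected counts were rounded to whole numbers, and 52403 of 52636 gene IDs matched the mouse annotation GENCODE M21 (GRCm38), from which names, types and coordinates come.

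Protein-coding genes with a TPM of at least 1 in at least 1 library were kept (12538). Library sizes were totals over all genes, scaled by TMM. edgeR 4.0.16 in R 4.3.3 fitted genotype, surgery, their interaction and week (3 residual degrees of freedom), and quasi-likelihood F-tests were adjusted by the Benjamini-Hochberg method over all tested genes, with 0.05 as threshold. Standard errors of fold changes were worked back from edgeR's F statistic, as the absolute log2 fold change over its square root. They thus restate the test and are no separate output of the fit. They include the spread between libraries, while the counting SE given with DIF covers counting error only. DESeq2 1.42.0, limma 3.58.1 on log2(TPM + 1), other scalings and filters, no week term and leaving out each library were the alternatives. The library kit was stranded, but whether the counting used strand is not given in the sources used here, so values of genes with overlapping opposite-strand exons (Thbs3 and Mtx1) are uncertain if it did not. Fitting was tested on simulated data.

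The members and lists were chosen with earlier results of these data known. All members were named, and from each related list up to 6 genes called for the difference of responses were named, with the 5 genes nearest the members' mean profile, except that some genes these rules select are not reported here. Promoter windows were from RefSeq. Protein sequences were not analysed here. The scavenger receptor gene Stab2 was placed on the matricellular list by mistake and was left there.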

Additional observations from a re-analysis of the deposited data

Results flagged for a closer look

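For 5 genes the test of the difference itself found that the response to DMM differed between the genotypes (edgeR's quasi-likelihood test, Benjamini-Hochberg adjusted over 12538 genes). The Oscar-/- response was lower than the WT response by a log2 difference of -1.27 for Tnxb (adjusted p = 0.00765), -1.19 for Fn1 (adjusted p = 0.00824), -1.06 for Postn (adjusted p = 0.0136), -0.73 for Tnc (adjusted p = 0.0252) and -1.02 for Thbs3 (adjusted p = 0.0406). For all 5, the DIF, which is taken from the same libraries, was negative at both weeks. On TPM, 75% of all tested genes had a negative DIF at 4 weeks and 82.6% at 2 weeks. Without the week term none of the 5 was called, and the calls also depended on single libraries, as given above. For Tnxb and Fn1 the Oscar-/- DMM libraries lay below the Oscar-/- sham libraries at both weeks, and for Postn they lay above them. The log2 estimates of Oscar-/- against WT after sham were 0.82 for Tnxb, 0.85 for Fn1, 0.63 for Postn, 0.41 for Tnc and 0.66 for Thbs3. After DMM they were -0.44, -0.35, -0.43, -0.32 and -0.35 in the same order. Each was smaller in size than after sham, and edgeR called none of them after DMM.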

How the results depend on the processing

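The week term of the fit already matched the libraries within each week. No paired analysis was possible because the labels give no replicate numbers that could serve as a further block. Over the 60 tests of a member in a comparison, 15 alternatives gave 884 values, of which 741 kept direction and side of the threshold, 73 lost the call, 44 gained one and 26 changed sign, none of these for a called member. Where numbers of called members moved by over 1.5 times, they were, for DMM in Oscar-/- (2 as reported), 1 with library totals alone, 5 with no filter, 4 with limma and 0 without the week term. For Oscar-/- against WT they were, after DMM (0 as reported), 1 with no filter and 1 with DESeq2, and after sham (3 as reported), 7 with no filter and 0 without the week term. Without the week term they were also 0 for DMM in WT and 0 for the difference of responses, and with limma 4 for the weeks. On leaving out 1 library, called members numbered 1 to 6 for DMM in WT, 0 to 4 for DMM in Oscar-/-, 0 to 2 for genotype after DMM, 0 to 5 for genotype after sham, 0 to 6 for the difference of responses and 7 to 9 for the weeks. The cause was not tested.

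The median DIF was -0.84 at 2 weeks on TMM-scaled counts and -1.11 at 4 weeks with log2(TPM + 1). With the other week's library in place of each in turn it ranged over -1.73 to -0.67 at 4 weeks and -1.71 to -0.96 at 2 weeks. Signs of small estimates turned. For Tgfbi, DMM in WT gave 0.09 with library totals and 0.20 with limma, and genotype after sham gave 0.02 with limma. For Thbs1, genotype after DMM gave -0.06 with library totals and -0.15 with limma, DMM in WT gave -0.04 without the week term, and DIF at 4 weeks gave -0.13 with the mean of both sham libraries. For Thbs2, DMM in Oscar-/- gave -0.03 with limma, and for Tnn, DIF at 2 weeks gave 0.07 on TMM-scaled counts.

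On leaving out 1 library, Tgfbi ranged over -0.14 to 0.10 (DMM in WT), -0.17 to 0.11 (DMM in Oscar-/-), -0.25 to 0.03 (genotype after DMM) and -0.23 to 0.02 (genotype after sham), and its DIF over -1.22 to 0.22 at 4 weeks (0.18 without WT DMM) and -0.90 to 0.54 at 2 weeks. Thbs1 ranged over -0.13 to 0.19 (DMM in WT), -0.57 to 0.16 (DMM in Oscar-/-), -0.21 to 0.28 (genotype after DMM), -0.08 to 0.63 (genotype after sham) and -0.59 to 0.13 (difference of responses), and its DIF over -1.87 to 1.60 at 4 weeks (-1.56 without Oscar-/- DMM) and -2.68 to 0.78 at 2 weeks (0.48 without Oscar-/- DMM). For DMM in Oscar-/-, Thbs2 ranged over -0.08 to 0.19, Thbs3 over -0.49 to 0.14 and Tnc over -0.26 to 0.08. For genotype, Thbs2 ranged over -0.49 to 0.10 and Tnn over -1.86 to 0.42 after DMM, and Tnn over -0.52 to 1.54 after sham.

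Over all genes, library totals alone moved the median gene by -0.14 for the difference of responses, -0.12 for genotype after DMM and 0.12 for the weeks, and limma on TPM by -0.26, -0.17 and 0.23, with 0.17 for DMM in WT. The difference of responses was called for 179 genes higher and 443 lower as reported, 14 and 565 with library totals, and 8 and 342 with limma. DMM in WT gave 508 higher and 75 lower, against 704 and 9 with library totals, and the weeks gave 1417 and 1332, against 2397 and 352 with library totals and 4198 and 144 with limma. Called genes ranged over 0 to 1728 for DMM in WT (583 as reported), 0 to 541 for DMM in Oscar-/- (14), 0 to 288 for genotype after DMM (6), 0 to 992 for genotype after sham (220), 0 to 1977 for the difference of responses (622) and 1191 to 4342 for the weeks (2749). Tnn, at 20 counts in its lowest library, was not tested with at least 50 counts in every library, and without the week term the weeks have no comparison.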
